A study of Mus musculus with 2 samples.

Results

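The genes described here are 8 guanylate-binding protein genes (Gbp2, Gbp2b, Gbp3, Gbp4, Gbp5, Gbp6, Gbp7 and Gbp8) and Iigp1. They were found by symbol among the 32285 genes of the count tables, and each of the 9 was present once. They were followed in 2 single-cell RNA libraries from subcutaneous implants of a syngeneic fibrosarcoma in C57BL/6 mice of WT genotype. Digested tumor was passed over a magnetic column, whose eluate gave the iron-positive library and whose flowthrough gave the iron-negative library. The labels name no other treatment, do not give the number, pooling or age of the mice, and hold no measure of iron per cell. With 1 library per fraction, the differences below compare 2 libraries without a replicate check, and no p-value is given.

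Guanylate-binding proteins are large GTPases whose genes are switched on by interferons, above all by interferon gamma. In infected cells they gather on the vacuoles and surfaces of intracellular pathogens, help to break them open and expose their contents to inflammasomes, and some of them have been tied to inflammatory signalling in sterile settings. Iigp1, also called Irga6, belongs to the immunity-related GTPases, a second interferon-induced family that coats and disrupts such vacuoles. Macrophages are the cells in which both families are best studied, but endothelial cells and fibroblasts also switch the genes on after interferon.

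The 8 guanylate-binding protein genes lie in 2 clusters of the mm10 mouse genome. Gbp5 (142493978 to 142522344), Gbp7 (142530342 to 142550149), Gbp3 (142560026 to 142573209), Gbp2b (142594847 to 142619179) and Gbp2 (142620602 to 142638008) follow each other on the plus strand of chromosome 3 within 144031 bases. Gbp8 (105014150 to 105139540), Gbp4 (105115767 to 105139586) and Gbp6 (105270702 to 105293698) lie on the minus strand of chromosome 5 within 279549 bases. The annotated Gbp8 and Gbp4 loci overlap on the same strand, Gbp9 overlaps both, and the genes of this group are close relatives in sequence. The sources used here do not say how reads shared by them were counted, so the separate levels of Gbp4 and Gbp8 are uncertain.

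The 5 genes of the chromosome 3 cluster have promoters in the RefSeq table for GRCm38.p6. Each was searched for the 2 kinds of site through which interferons are known to act. The first was an interferon-stimulated response element, searched as 2 copies of TTTC with any 2 bases between them, or GAAA in the same arrangement for the other strand. The second was a gamma-activated site, searched as TTCNNNGAA, which reads the same on both strands. The windows below are the 250 bases before the start given by the RefSeq table, and capitals mark the matches. This start need not be the gene start given above, and match positions are counted from it. The Gbp5 window lies inside the Gbp5 locus given above, and the Gbp3 and Gbp2 windows end inside theirs.
Gbp5, chr3:142496684-142496933, plus strand: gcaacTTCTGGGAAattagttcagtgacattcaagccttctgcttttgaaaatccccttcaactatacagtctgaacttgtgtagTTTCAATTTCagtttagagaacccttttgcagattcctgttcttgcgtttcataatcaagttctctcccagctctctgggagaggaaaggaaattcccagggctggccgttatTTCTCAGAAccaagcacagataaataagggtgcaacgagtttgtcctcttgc
Gbp7, chr3:142530086-142530335, plus strand: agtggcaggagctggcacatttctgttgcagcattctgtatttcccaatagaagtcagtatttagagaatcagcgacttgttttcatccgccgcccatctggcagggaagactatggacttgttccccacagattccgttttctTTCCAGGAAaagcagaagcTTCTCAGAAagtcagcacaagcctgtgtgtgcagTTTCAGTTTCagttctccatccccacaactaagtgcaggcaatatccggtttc
Gbp3, chr3:142559794-142560043, plus strand: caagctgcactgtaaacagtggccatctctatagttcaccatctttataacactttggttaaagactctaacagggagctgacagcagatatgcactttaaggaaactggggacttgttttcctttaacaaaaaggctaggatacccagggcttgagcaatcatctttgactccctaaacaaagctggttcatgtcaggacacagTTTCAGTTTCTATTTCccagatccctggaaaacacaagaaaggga
Gbp2b, chr3:142594597-142594846, plus strand: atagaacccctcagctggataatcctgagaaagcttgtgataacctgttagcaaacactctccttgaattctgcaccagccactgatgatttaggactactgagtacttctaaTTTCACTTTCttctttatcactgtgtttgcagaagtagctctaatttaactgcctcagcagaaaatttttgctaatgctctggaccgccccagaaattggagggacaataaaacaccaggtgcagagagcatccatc
Gbp2, chr3:142620413-142620662, plus strand: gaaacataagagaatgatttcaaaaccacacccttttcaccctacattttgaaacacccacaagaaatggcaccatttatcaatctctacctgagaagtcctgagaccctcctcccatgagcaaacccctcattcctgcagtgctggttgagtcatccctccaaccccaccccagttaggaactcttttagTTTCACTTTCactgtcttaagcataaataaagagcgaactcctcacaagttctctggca
Over the full windows of 300 bases, 5 of the 6 promoters of these 5 genes held a response-element match, against 1131 of 32851 promoters of that length (3.44%). The promoter without one was a further Gbp3 start that is not printed. The match lay 59 to 30 bases before the start in Gbp2, Gbp3 and Gbp7 and farther away in Gbp2b and Gbp5, at positions -137 to -128 and -165 to -156. In Gbp3 it was a pair of matches that overlap. A gamma-activated-site match was found in 2 of the 6 promoters, those of Gbp5 and Gbp7, each of which held 2, and in 8.30% of all promoters. These matches describe letters in the windows and are not measured binding sites. Whether they bear on the levels below was not tested.

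Depth was counted in UMIs, unique molecular identifiers that mark 1 captured transcript each. The iron-negative table summed to 132796517 UMIs over 10124 barcodes and the iron-positive table to 129921053 over 13668. A mitochondrial share of up to 15% and a minimum of 200 detected genes left 9403 and 12143 cells, with medians of 13017 and 7349 UMIs. The libraries shared 85 barcode sequences. The 9 genes together gave 170718 UMIs (0.131%) in the iron-negative and 186146 UMIs (0.149%) in the iron-positive cells. Cells were sorted into classes by marker genes. Phagocyte-gated cells, which express Csf1r, Adgre1, C1q genes and Lyz2, numbered 9151 (97.3% of kept cells) in the iron-negative library and 9711 (80.0%) in the other. The iron-negative library held 13 endothelial and 69 mesenchymal cells, and the iron-positive library 712 and 265, with a further 119 pericyte or smooth muscle cells. These classes are called stromal below by their marker genes alone. The tumor is a fibrosarcoma, and whether the mesenchymal class holds malignant cells was not tested. Pecam1 (852.9 and 776 CPM) and Cdh5 (873.6 and 815 CPM) marked the endothelial class in the iron-negative and iron-positive library, but Col1a1, a fibroblast collagen gene, also stood at 2008 and 948 CPM there, and its part in the endothelial values below was not tested. A level is given as CPM, the UMIs of the gene per 1000000 UMIs of that class, and intervals are exact 95% intervals that cover counting error only.

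UMIs of all 9 genes were found in the phagocytes of both fractions, with nearly equal sums. The 9 genes stood at 1307 CPM in iron-negative and 1308 CPM in iron-positive phagocytes, a log2 ratio of 0.00 (-0.01 to 0.01). Endothelial cells carried more, 2255 CPM in the iron-positive library against those 1308 CPM, and in them Iigp1, Gbp4 and Gbp6 stood out. Gbp2b and Gbp8 went the other way and were low outside phagocytes. Neutrophil-gated cells, few as they were, showed Gbp2, Gbp5 and Gbp7 with hardly any Iigp1.

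**Figure D1:**
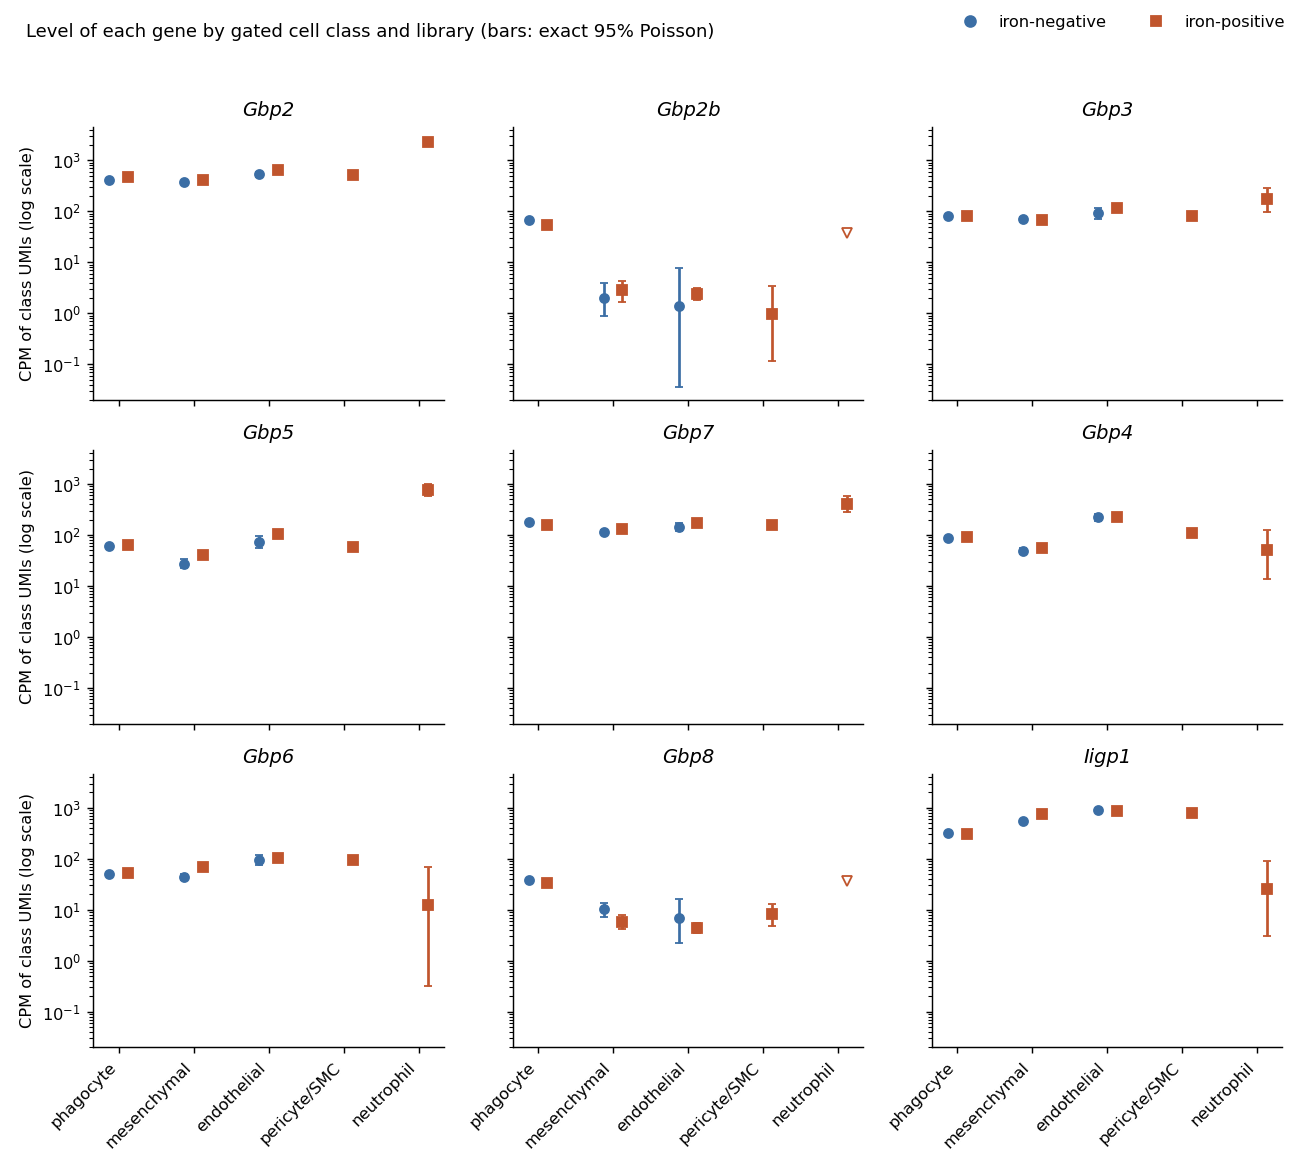
Level of each of the 9 genes (vertical axis, CPM of the UMIs of the class, log scale) in 5 gated cell classes (horizontal axis), with circles for the iron-negative and squares for the iron-positive library. Bars are exact 95% Poisson intervals, an open triangle marks a class with no UMI at the level that 3 counts would give, and classes with under 10 cells are not drawn. Gbp2b stands at 53.3 CPM or more in phagocytes and at under 3 CPM in endothelial, mesenchymal and pericyte or smooth muscle cells, while Iigp1 is higher in those classes than in phagocytes.

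Of the 9 genes, Iigp1 had the highest ratio of stromal cells over phagocytes. It lies on another chromosome than its relatives (mm10 chromosome 18, plus strand, 60376027 to 60392634). In phagocytes it stood at 318 CPM (iron-negative) and 308 CPM (iron-positive). In endothelial cells it stood at 887 CPM in the iron-negative library, from 13 cells, and at 874 CPM in the iron-positive library, a log2 ratio over phagocytes of 1.48 (1.37 to 1.59) and 1.5 (1.48 to 1.53). Mesenchymal cells had 549 and 760 CPM, and the 119 pericyte or smooth muscle cells of the iron-positive library had 801 CPM. The level was thus higher in each of these classes than in phagocytes, and the interval of the iron-negative endothelial value (820.1 to 959 CPM) holds the iron-positive one.

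Gbp4, Gbp5 and Gbp6 were also higher in iron-positive endothelial cells than in iron-positive phagocytes. Gbp4 stood at 230 CPM against 93.7 CPM (log2 ratio 1.3, 1.25 to 1.35), Gbp6 at 103 against 52.3 CPM (0.98, 0.91 to 1.06) and Gbp5, a member known for its part in inflammasome assembly, at 103 against 63.5 CPM (0.70, 0.63 to 0.77). With Iigp1 this made 4 of 9 members at least 1.5-fold higher, where 27.1% of 8725 genes with at least 10 CPM in either class were higher. In the same comparison 2 of 9, Gbp2b and Gbp8, were at least 1.5-fold lower, against 29.6% of genes. Both counts are to be read against classes that differ in more than 1 of every 2 genes (56.7% past 1.5-fold). The other 3 differed by less. Gbp2, which is among the best-known members in defence against vacuolar pathogens, had a log2 ratio of 0.48 (650 against 467 CPM), Gbp3 of 0.57 (119 against 80.1 CPM) and Gbp7 of 0.11 (169 against 157 CPM). Under the processing alternatives given at the end, Gbp2 ranged from 0.47 to 0.69 and Gbp3 from 0.56 to 0.87. Both passed 1.5-fold at their highest, so the count of 4 depends on the processing. In the 13 iron-negative endothelial cells the same 3 of these 4 genes, Iigp1, Gbp4 and Gbp6, were past 1.5-fold, where 29.7% of genes were higher, and Gbp5 was not (73.1 against 61.7 CPM, 0.26, -0.17 to 0.64). Gbp2b (1 UMI) and Gbp8 (5 UMIs) were again the 2 lower ones, where 29.1% of genes were.

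Gbp2b, also known as Gbp1, was high in phagocytes and near 0 in the stromal classes. It stood at 69.1 CPM in iron-negative and 53.3 CPM in iron-positive phagocytes. In iron-positive endothelial cells 50 UMIs were counted (2.42 CPM), in mesenchymal cells 19 UMIs (2.80 CPM) and in pericyte or smooth muscle cells 2 UMIs (0.960 CPM). These levels are 4.54%, 5.26% and 1.80% of the phagocyte level. The 15 phagocyte marker genes gave 5.24%, 6.94% and 5.29% of their phagocyte level in the same classes, and single markers spanned 4.30% to 6.60% in endothelial, 5.73% to 8.28% in mesenchymal and 3.54% to 8.47% in pericyte or smooth muscle cells. The Gbp2b share thus lay within the marker range in endothelial cells and under it in the other two classes, from few UMIs. Free phagocyte RNA and mixed droplets were not tested as the source of either. In the iron-negative library its 8 mesenchymal UMIs were 2.93% of the phagocyte level, beside 6.94% for the markers. No Gbp2b UMI was seen in 43 T or NK cells or in 40 neutrophils of the iron-positive library, where 3 counts, taken as the limit that a count of 0 allows, would be 12.3 and 37.4 CPM.

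Gbp8 was likewise low outside phagocytes, but not as low. It stood at 38.7 and 33.2 CPM in iron-negative and iron-positive phagocytes and at 4.41 CPM in iron-positive endothelial cells, a log2 ratio of -2.91 (-3.23 to -2.61). That is 13.3% of the phagocyte level, above the 4.30% to 6.60% spanned by the single phagocyte markers there. In mesenchymal cells Gbp8 was at 10.1 CPM (iron-negative) and 5.75 CPM (iron-positive). Reads shared with Gbp4, which overlaps it and was high in endothelial cells, were not tested as a source of these UMIs.

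Mesenchymal cells had higher Iigp1 than phagocytes and lower Gbp2b, Gbp4, Gbp5 and Gbp8. Relative to phagocytes of the same library, Iigp1 was higher by 0.79 and 1.3 on the log2 scale in the iron-negative and iron-positive library. It was the 1 member of 9 at least 1.5-fold higher in each library (31.6% and 29.3% of genes were). Gbp2b, Gbp4, Gbp5 and Gbp8 were at least 1.5-fold lower in both libraries and Gbp7 in the iron-negative library alone, so 5 and 4 of 9 were lower, where 32.7% and 29.6% of genes were. Gbp4, high in endothelial cells, thus stood at 49.1 and 55.3 CPM in mesenchymal cells. In pericyte or smooth muscle cells Iigp1 and Gbp6 (93.6 CPM) were the 2 of 9 at least 1.5-fold higher than in phagocytes (29.4% of genes), and Gbp2b and Gbp8 the 2 lower (28% of genes).

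UMI counts are not scaled by transcript length and are not equally captured from all genes, so the make-up of the family was compared between classes rather than between genes. Iigp1 gave 24.3% and 23.6% of the family's UMIs in iron-negative and iron-positive phagocytes, 38.7% in iron-positive endothelial cells, 44.1% in pericyte or smooth muscle cells and 49.1% in mesenchymal cells. Gbp2b gave 5.29% and 4.07% in phagocytes and 0.107% in iron-positive endothelial cells. Neutrophil-gated cells showed a make-up of their own. The 40 iron-positive neutrophils, with a median of 2001 UMIs, held 299 UMIs of the family, of which Gbp2 gave 61.2%, Gbp5 20.7% and Iigp1 0.669%. Gbp5 stood at 774 CPM (593 to 992) there and Gbp2 at 2283 CPM (1964 to 2639), 12.3-fold and 4.90-fold the level of iron-positive phagocytes, while 2 UMIs of Iigp1 were seen, both in 1 cell. With Gbp3 (14 UMIs) and Gbp7 (33 UMIs), 4 of 9 members were at least 1.5-fold higher than in phagocytes, where 28.7% of genes were. The other 5 were lower (48.4% of genes), Iigp1, Gbp4 (4 UMIs), Gbp6 (1 UMI) and, with no UMI, Gbp2b and Gbp8. For Gbp8 this was not detectable at this depth, since its phagocyte level of 33.2 CPM is under the level of 3 counts. The neutrophil intervals of Gbp4 (13.6 to 128 CPM) and Gbp6 (0.316 to 69.5 CPM) held their phagocyte levels of 93.7 and 52.3 CPM, so those differences are not resolved either. The 6 iron-negative neutrophils had 18 UMIs of Gbp2, 11 of Gbp5 and none of Iigp1. In T or NK cells Gbp2 was low, 87.4 and 98.4 CPM in the iron-negative and iron-positive library.

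**Figure D2:**
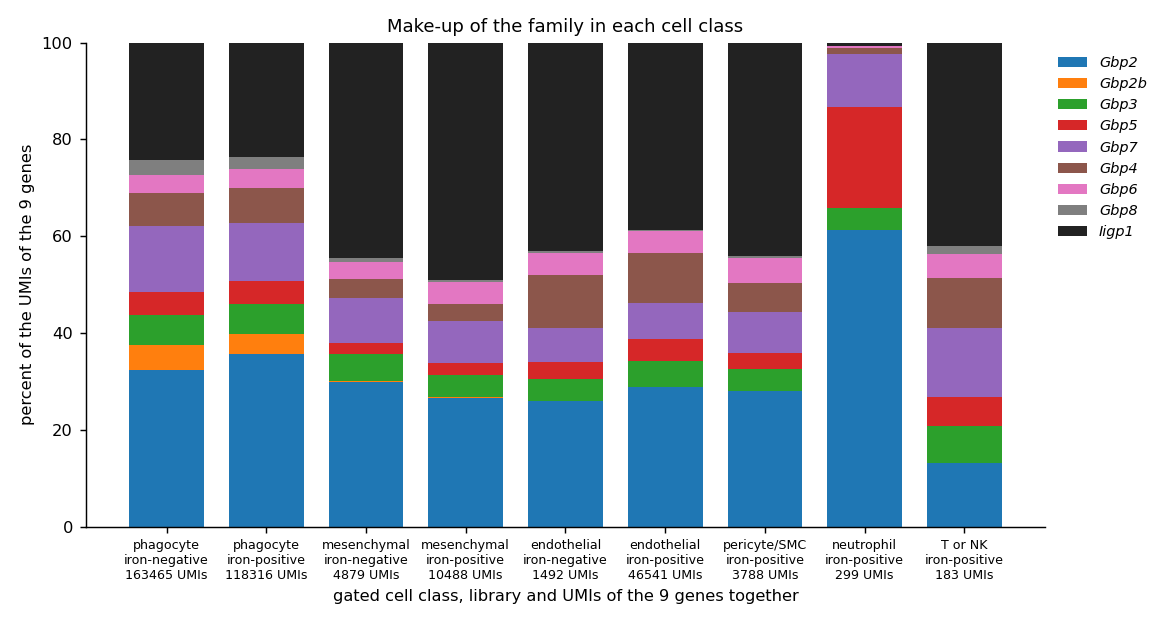
Percent of the UMIs of the 9 genes that each gene gave (vertical axis, stacked bars) in gated cell classes of each library (horizontal axis, with the family's UMIs under each bar). Iigp1, in black, takes 24.3% and 23.6% in phagocytes, 38.7% in iron-positive endothelial cells, 49.1% in iron-positive mesenchymal cells and 0.669% in neutrophils, and Gbp2b, in orange, is seen as a band in phagocytes but not in the stromal classes.

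Within the phagocytes, the level of the family followed interferon-related states. The 14 overlapping states were set by short marker lists that hold none of the 9 genes, each state taking about the top 10% of phagocytes of both libraries by the list's share of UMIs. The interferon gamma list (Cxcl9, Serpina3g, Serpina3f and Ido1) rested almost wholly on the chemokine gene Cxcl9, with 92.8% and 92.5% of the list's UMIs, and took 1049 iron-negative and 838 iron-positive cells. In these cells the 9 genes summed to 2344 and 2504 CPM, against 1148 and 1174 CPM in other phagocytes of the same library, log2 ratios of 1.03 (1.01 to 1.05) and 1.09 (1.07 to 1.11). The sum is led by Gbp2 and Iigp1. Cells of this state were also deeper, with medians of 16065 and 10241 UMIs against 13098 and 8053 in all phagocytes. After thinning of each cell to 2000 UMIs the summed log2 ratios were 1.02 and 1.11.

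Each member was higher in the interferon gamma list state in both libraries. At least 1.5-fold higher were 8 of 9 in the iron-negative library, where 1.01% of 7705 genes were, and 9 of 9 in the iron-positive library, where 2.25% of 7613 genes were. The median log2 ratio of the members was 0.90 and 0.87, beside -0.06 and -0.02 over all genes. Gbp2 stood at 920 against 345 CPM in the iron-negative library and at 1006 against 407 CPM in the iron-positive library. Gbp5 stood at 135 against 50.3 CPM and at 148 against 54.0 CPM. Gbp2b had the highest ratio of the 9 in the iron-positive library, 164 against 40.9 CPM (2.0, 1.91 to 2.09), and 151 against 56.6 CPM in the iron-negative library (1.42, 1.35 to 1.48). Gbp8 had the lowest ratio in the iron-negative library (0.54) and Gbp7 in the iron-positive library (0.67). A state against other cells of the same library is a description of cells, not of replicate animals.

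**Figure D3:**
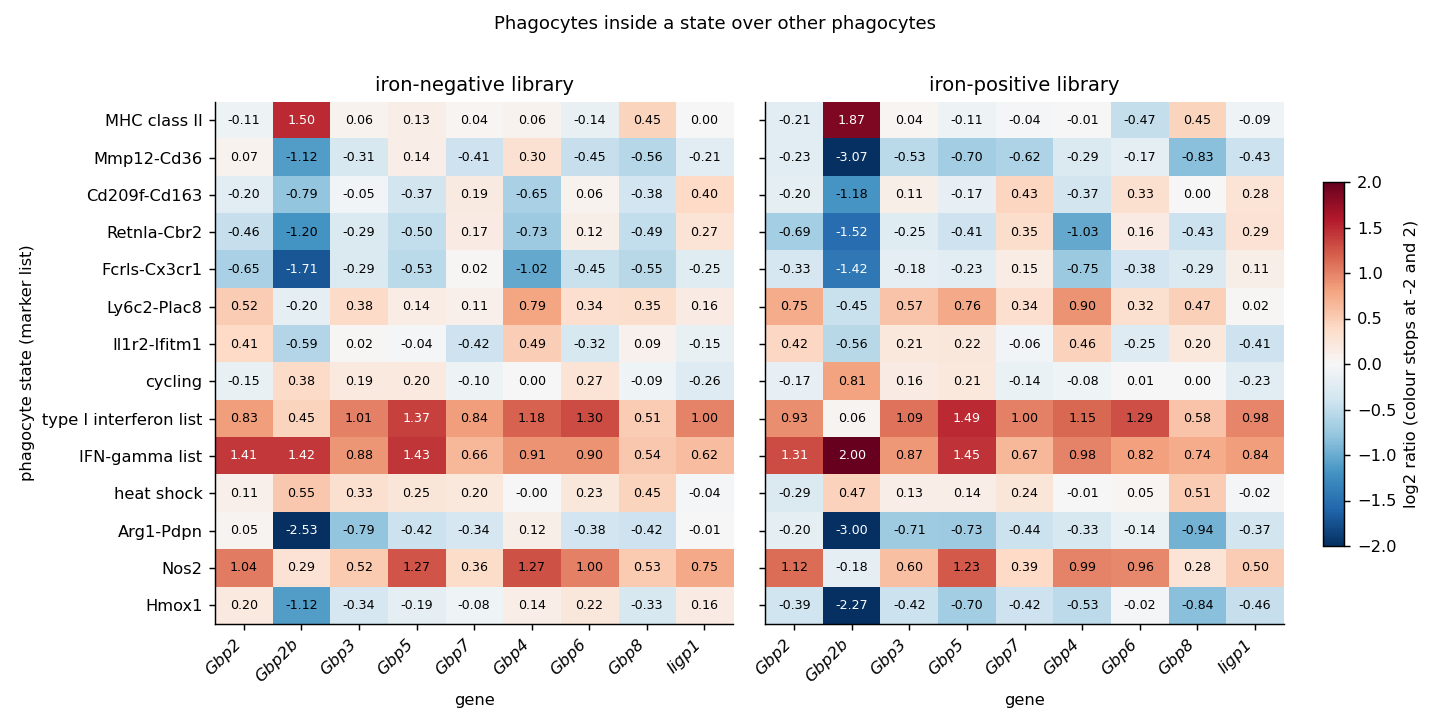
Log2 ratio of the level of each gene (columns) inside a phagocyte state over all other phagocytes (rows, states named by their marker list), for the iron-negative library on the left and the iron-positive library on the right; red is higher inside the state, blue is lower, and the number in each cell is the ratio. Red fills both interferon lists and the Nos2 state for most genes, and the Gbp2b column differs from the others, with 1.5 and 1.87 in the MHC class II state and -2.53 and -3.00 in the Arg1-Pdpn state.

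In the MHC class II state, set by antigen-presentation genes such as H2-Aa and Cd74, Gbp2b stood at 151 CPM (iron-negative) and 158 CPM (iron-positive), against 53.5 and 43.3 CPM in other phagocytes. It was the 1 member of 9 at least 1.5-fold higher there in each library, where 0.893% and 2.4% of genes were, and the summed log2 ratios were 0.10 and 0.02. In the Arg1-Pdpn state, led by the arginine-consuming enzyme gene Arg1, Gbp2b stood at 12.6 and 7.51 CPM (log2 ratios -2.53 and -3.00). In the Mmp12-Cd36 state, marked by a macrophage elastase and a lipid scavenger receptor gene, it stood at 31.9 and 7.50 CPM (-1.12 and -3.07), and in the Hmox1 state, set by the heme-degrading enzyme gene, at 32.0 and 12.5 CPM (-1.12 and -2.27).

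Other members were lower in these 3 states too, mainly in the iron-positive library and by less. In the Arg1-Pdpn state 2 of 9 were at least 1.5-fold lower in the iron-negative library (Gbp2b and Gbp3), where 6.32% of genes were, and 4 of 9 in the iron-positive library (Gbp2b, Gbp3, Gbp5 and Gbp8), where 9.6% were. In the Mmp12-Cd36 state Gbp2b alone was lower in the iron-negative library (12% of genes), and Gbp2b, Gbp5, Gbp7 and Gbp8 in the iron-positive library (11.6%). In the Hmox1 state Gbp2b alone was lower in the iron-negative library (15.8%), and Gbp2b, Gbp5 and Gbp8 in the iron-positive library (11.4%). Gbp8 stood at 18.5, 20.3 and 19.9 CPM and Gbp5 at 40.4, 42.0 and 41.3 CPM in the Arg1-Pdpn, Mmp12-Cd36 and Hmox1 states of the iron-positive library. The sums of the 9 genes had log2 ratios of -0.17, -0.14 and 0.04 in the iron-negative and -0.40, -0.44 and -0.48 in the iron-positive library.

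The spread between states was much wider for Gbp2b than for the other members. Its highest state was 12.0-fold its lowest in the iron-negative library, MHC class II or the interferon gamma list (both 151 CPM) over Arg1-Pdpn, and 21.8-fold in the iron-positive library, the interferon gamma list over Mmp12-Cd36. For the other 8 genes this ratio lay between 2.07-fold (Gbp8) and 4.04-fold (Gbp4), both in the iron-negative library. H2-Aa, which the MHC class II list uses, was low in some of the states where Gbp2b was low, but the 2 genes did not share 1 order. In the iron-positive library it stood at 701 CPM in the Arg1-Pdpn state, 769 in the Mmp12-Cd36 state and 535 in the Hmox1 state, against 8006 in the MHC class II state and 4242 in the interferon gamma list state. Ciita, the switch gene of MHC class II, was at 4.70, 5.59 and 3.12 CPM and then at 66.2 and 49.2 CPM in the same order. The Fcrls-Cx3cr1 state of that library had Gbp2b at 20.6 CPM with H2-Aa at 2095, and the Il1r2-Ifitm1 state had Gbp2b at 37.5 CPM with H2-Aa at 4101, close to its level in the interferon gamma list state.

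Gbp4 had the next widest spread and a different order. It was highest in the Nos2 state of the iron-negative library (193 CPM) and in the type I interferon list state of the iron-positive library (186 CPM). It was lowest in the Fcrls-Cx3cr1 state (47.7 CPM) and the Retnla-Cbr2 state (47.9 CPM). In the Nos2 state, set by the inducible nitric oxide synthase gene, the sum of the 9 genes stood at 2199 and 2090 CPM, log2 ratios of 0.84 and 0.80. Gbp2b had ratios of 0.29 and -0.18 there. In the Ly6c2-Plac8 state the sum was higher by 0.33 and 0.49 on the log2 scale, led by Gbp4 (0.79 and 0.90) and Gbp2 (0.52 and 0.75).

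The type I interferon list (Ifit1, Ifit2, Ifit3, Rsad2 and Isg15), genes that interferons alpha and beta switch on, was also tied to the family. It took 809 iron-negative and 1078 iron-positive phagocytes, in which the 9 genes summed to 2348 and 2366 CPM, log2 ratios over other phagocytes of 0.93 and 0.99. In each library the same 7 genes were at least 1.5-fold higher (Gbp2, Gbp3, Gbp4, Gbp5, Gbp6, Gbp7 and Iigp1), where 5.33% and 4.77% of genes were. Gbp2b was not among them, with log2 ratios of 0.45 and 0.06 (-0.08 to 0.20), nor was Gbp8, with 0.51 and 0.58. Of the cells in the interferon gamma list state 92 (8.77%) and 97 (11.6%) were also in the type I state.

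Cells in only 1 of the 2 interferon lists were then set side by side. The sums of the family were close, 2254 against 2160 CPM in the iron-negative library and 2383 against 2224 CPM in the iron-positive library for the interferon gamma list only and the type I list only. The members split in the same way in both libraries. Gbp2 was higher in the interferon gamma list cells, 899 against 631 CPM (log2 ratio 0.51) and 970 against 761 CPM (0.35). Gbp2b was higher in them too, 148 against 76.2 CPM (0.96) and 167 against 46.8 CPM (1.84). On the type I side, Gbp6 was lower in the interferon gamma list cells at 78.0 against 105 CPM and 80.0 against 109 CPM (-0.43 and -0.45), and Gbp3, Gbp4, Gbp7 and Iigp1 also had ratios under 0 in both libraries (-0.13 to -0.40). The intervals of Gbp5 and Gbp8 held 0 in both. The 2 lists also overlapped other states unequally, counted here with the cells in both lists. In the iron-negative library the MHC class II state held 6.30% of type I and 23.1% of interferon gamma list cells. In the iron-positive library these shares were 3.62% and 18.0%. There the Mmp12-Cd36 state held 21.8% and 4.30%, and the Hmox1 state 22.0% and 3.46%. The part of these states in the split was not tested.

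**Figure D4:**
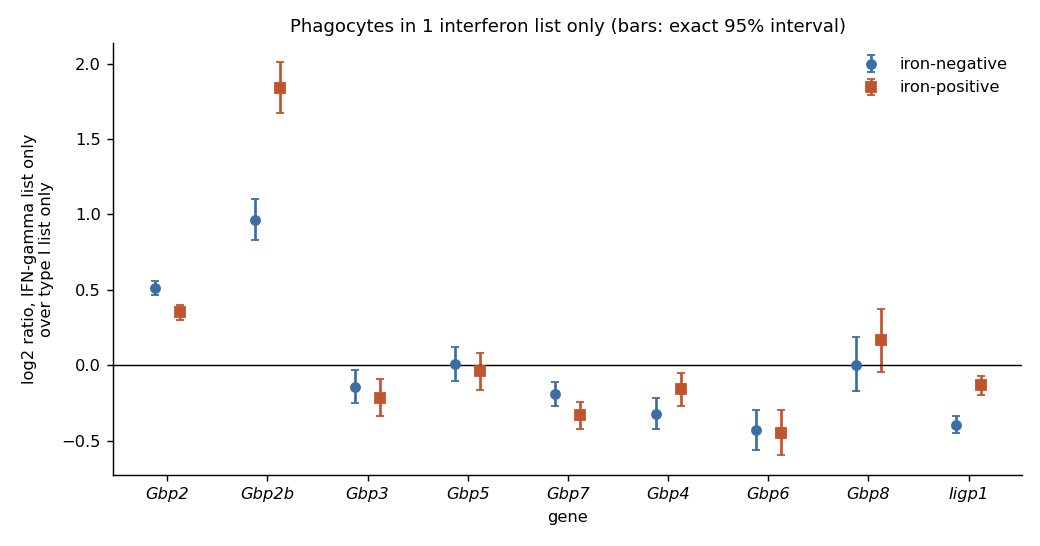
Log2 ratio of the level of each gene (horizontal axis) in phagocytes of the interferon gamma list only over phagocytes of the type I list only (vertical axis), with circles for the iron-negative and squares for the iron-positive library and bars for exact 95% intervals. Gbp2 and Gbp2b sit above 0 in both libraries, Gbp3, Gbp4, Gbp6, Gbp7 and Iigp1 below it, and the intervals of Gbp5 and Gbp8 cross it.

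The comparison of the 2 fractions asked whether phagocytes held by the column express these genes differently. No member differed by 1.5-fold, 0 of 9 in either direction, where 2.28% of 7714 genes were higher and 0.609% lower in iron-positive phagocytes. The median of all genes was -0.11 on the log2 scale, so the sum lies 0.11 above it. Gbp2 was slightly higher, at 422 CPM in iron-negative and 467 CPM in iron-positive phagocytes (0.15, 0.13 to 0.17). Gbp2b had the lowest ratio of the 9, at 69.1 and 53.3 CPM (-0.38, -0.43 to -0.32). Gbp8 (-0.22) and Gbp7 (-0.19) were also lower. Iigp1, Gbp3, Gbp4, Gbp5 and Gbp6 had ratios between -0.04 and 0.08, and that of Iigp1 was 0.07 when scaled by the median gene.

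The libraries also differed in their shares of states, and Gbp2b was lower within most states as well, so the 2 were not told apart. The Mmp12-Cd36 state took 168 (1.84%) of iron-negative and 1719 (17.7%) of iron-positive phagocytes, and the Hmox1 state 260 (2.84%) and 1627 (16.8%). The MHC class II state took 1245 (13.6%) and 642 (6.61%). Without the cells of the Mmp12-Cd36 and Hmox1 states, a choice made after seeing the data, the Gbp2b ratio was -0.07. These states are mostly iron-positive and low in Gbp2b, so leaving them out moves the ratio toward 0 by construction. As a mean over cells of the CPM of each cell, which gives shallow cells more weight, the Gbp2b ratio was -0.65, past 1.5-fold. Within states, Gbp2b was lower in the iron-positive library in 12 of 14, with ratios from -2.10 in the Mmp12-Cd36 state to 0.12 in the interferon gamma list state. It was at least 1.5-fold lower in 8 of them. These were the Mmp12-Cd36 (8.1% of genes lower), Hmox1 (7.46%), Arg1-Pdpn (6.25%), Cd209f-Cd163 (4.53%), type I list (2.68%), Nos2 (2.45%), Retnla-Cbr2 (1.98%) and Ly6c2-Plac8 (1.49%) states. The states overlap, and not to the same extent in the 2 libraries, so they are not separate comparisons. Of the Arg1-Pdpn cells, 10.1% in the iron-negative and 48.3% in the iron-positive library were also in the Mmp12-Cd36 state. For the Nos2 cells this was 7.47% and 35.0%, and for the type I list cells 2.84% and 21.8%. Within the MHC class II state Gbp2b was at 151 and 158 CPM (0.07, -0.03 to 0.16). No other member was past 1.5-fold in more than 2 states.

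**Figure D5:**
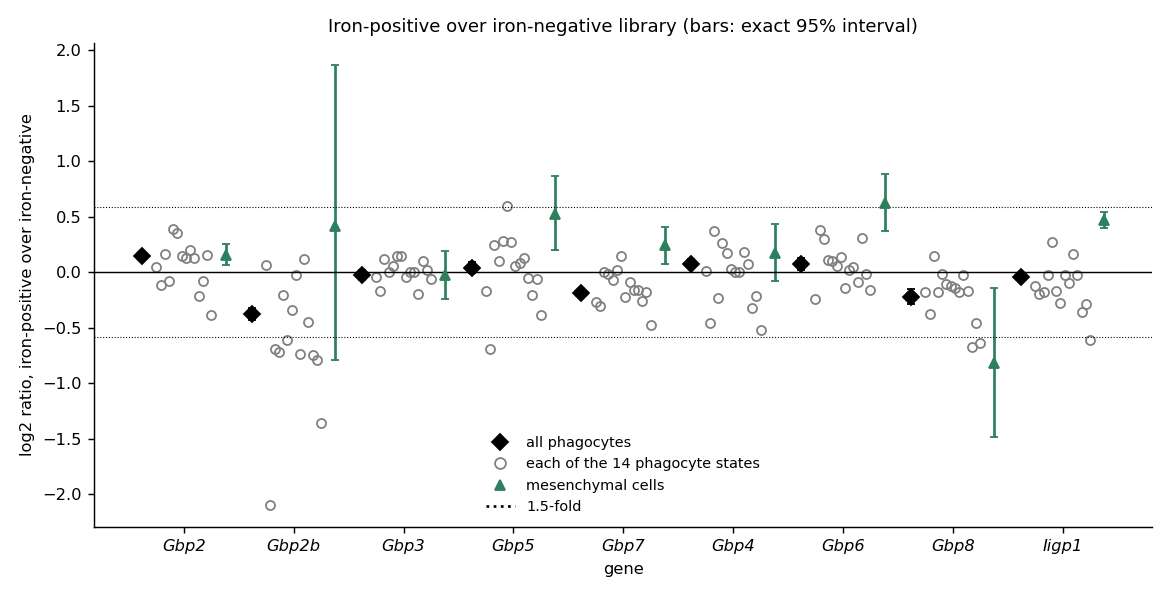
Log2 ratio of iron-positive over iron-negative (vertical axis) for each gene (horizontal axis) in all phagocytes (diamonds), in each of the 14 overlapping phagocyte states (open circles) and in mesenchymal cells (triangles); bars are exact 95% intervals and dotted lines mark 1.5-fold. The diamonds lie between -0.38 (Gbp2b) and 0.15 (Gbp2), and the circles of Gbp2b reach down to -2.10.

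Over all kept cells, without regard to class, the picture was different, and Iigp1 and Gbp2b moved apart. Iigp1 stood at 326 CPM in the iron-negative and 435 CPM in the iron-positive library (0.41), and Gbp2b at 66.4 and 39.8 CPM (-0.74), the 1 member of 9 past 1.5-fold, where 9.29% of genes were higher and 3.98% lower. The iron-positive library held 5.86% endothelial cells against 0.138% in the iron-negative library. Its endothelial cells carried Iigp1 at 874 and Gbp2b at 2.42 CPM. Its mesenchymal and pericyte or smooth muscle cells carried Iigp1 at 760 and 801 CPM. Kept cells that met no gate numbered 122 in the iron-negative and 1129 in the iron-positive library, the latter with Gbp2b at 5.55 CPM. Within phagocytes the Gbp2b ratio between the fractions was -0.38. The part of each class in the shifts over all kept cells was not tested.

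Mesenchymal cells, 69 and 265 in number, gave the family at 1234 and 1547 CPM in the iron-negative and iron-positive library (0.33, 0.28 to 0.38). Gbp6 was higher by 1.54-fold, at 44.3 and 68.2 CPM, and Gbp8 lower, at 10.1 and 5.75 CPM, so 1 of 9 was called in each direction, where 9.26% of genes were higher and 9.87% lower. Gbp5 stood at 27.6 and 39.8 CPM and Iigp1 at 549 and 760 CPM (0.47, 0.40 to 0.54). The class differed between the libraries in its own markers, with Col1a1 at 2153 and 6254 CPM, Postn at 554 and 1873 CPM and a median depth of 53273 and 18316 UMIs. The part of these differences in the ratios was not tested. Taken as a mean over cells of the CPM of each cell, the summed ratio was 0.09.

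Cells differed widely in how much of the family they held. Each cell was thinned to 2000 UMIs, and 545 and 2089 shallower phagocytes were dropped from the iron-negative and iron-positive library. Iigp1 then was seen in 29.6% and 28.9% of phagocytes. A Poisson spread around the same mean gives 47.0% and 45.9%, and the variance was 2.98 and 3.03 times the mean. Gbp2 was seen in 42.3% and 44.0%, with a variance of 2.47 and 2.72 times the mean. Gbp8 was seen in 7.76% and 6.28% of cells, too few UMIs per cell for its spread to be read. Before thinning Iigp1 was seen in 55.3% and 46.0% of phagocytes. In iron-positive endothelial cells thinned the same way (597 cells), Iigp1 was seen in 71.2%, Gbp2 in 55.1% and Gbp2b in 0.670%, the last against 6.43% of phagocytes.

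The members also tended to be found in the same phagocytes, though weakly cell by cell. Pearson's r of log-scaled counts between pairs of members lay between 0.076 (Gbp2b with Gbp6, iron-positive) and 0.404 (Gbp5 with Gbp7, iron-negative) over 9151 and 9711 cells. These are sparse counts from 1 library each that share depth, and the values are a description. By r with the summed members, taking the lower of both libraries, the 10 nearest of 5530 other genes included Samhd1 (0.43 and 0.40), Ifi47, AW112010, Irgm1, Calhm6, Igtp, Cd274, Cxcl10 and Ifi204.

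The genes around the family were listed by role. Ifng, the ligand, was counted in T or NK cells with 102 UMIs in 21 iron-negative and 48 UMIs in 43 iron-positive cells. Phagocytes gave 6 and 3 UMIs, and the 712 iron-positive endothelial cells gave 47 UMIs. These are raw counts from classes of unlike size and depth, not levels. The endothelial cells had a median of 14412.5 UMIs, against 4508 in the T or NK cells of that library. The receptor genes Ifngr1 (233 and 206 CPM) and Ifngr2 (134 and 112 CPM) and the transcription factor genes Irf1 (237 and 233 CPM) and Irf8 (327 and 303 CPM) were expressed in phagocytes of both libraries. Of the 8 measured ligand, receptor and signal genes none was past 1.5-fold between the fractions, nor was any of 6 immunity-related GTPases or 8 caspase and inflammasome genes. Of 10 other interferon gamma targets 1 was higher, Ubd, and of 10 type I targets 1, Rsad2 (129 and 201 CPM). Among all genes 2.28% were higher and 0.609% lower. Ubd stood at 1.06 and 18.6 CPM in phagocytes and at 1267 CPM in iron-positive endothelial cells. The endothelial marker gene Plvap stood at 0.240 and 9.33 CPM in the same phagocytes. Endothelial RNA as a source of the Ubd UMIs was not tested.

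In the interferon gamma list state, other immunity-related GTPases were less far from the rest of the phagocytes than the members were. Their median log2 ratio was 0.52 (3 of 6 at least 1.5-fold higher, where 1.01% of all genes were) in the iron-negative and 0.57 (2 of 6, against 2.25%) in the iron-positive library. Gbp9 was at 26.7 against 22.0 CPM and 25.8 against 21.7 CPM. Of the type I targets 0 and 1 of 10 were past 1.5-fold. In the type I state, 6 of 6 GTPases were past 1.5-fold in both libraries, where 5.33% and 4.77% of all genes were, with medians of 1.3 and 1.32, and Gbp9 stood 1.02 and 0.95 higher on the log2 scale.

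In endothelial cells some of the effector genes were higher than in phagocytes, while both receptor genes were lower. In the iron-positive library Ifngr1 stood at 97.6 CPM against 206 in phagocytes (-1.07) and Ifngr2 at 58.7 against 112 (-0.93). In this comparison 29.6% of all genes were at least 1.5-fold lower. The immunity-related GTPases had 3 of 7 at least 1.5-fold higher, Igtp (1.42), Tgtp1 (3.24) and Tgtp2 (1.46), where 27.1% of all genes were higher, and none lower. The chemokine genes Cxcl9 (3207 against 1176 CPM) and Cxcl10 (798 against 255 CPM) were higher too. They are named from a list of 11 other interferon gamma targets, whose counts in this comparison are not given here. The caspase and inflammasome genes, which act downstream of guanylate-binding proteins in macrophages, had 7 of 8 at least 1.5-fold lower, where 29.6% of all genes were, among them Nlrp3 (10.6 against 173 CPM), Pycard (57.9 against 219 CPM) and Casp1 (16.6 against 47.0 CPM). Casp4 was the exception, at 101 against 73.4 CPM.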

How the data were processed

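Each library was made with the 10x Genomics 3' v3 protocol from tumor tissue digested for 45 min, per the labels' protocols. The authors deposited raw UMI counts, 1 value for each gene in each barcode. Cell Ranger 3.1.0 and mm10 are named per the submitters' processing notes, but Cell Ranger 5.0.0 per the file headers, and no annotation release is named in the sources used here. Gene coordinates came from GENCODE vM21, matched by Ensembl ID, and promoter windows from the RefSeq table for GRCm38.p6.

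Phagocytes needed 5 of 15 marker genes and a list share of at least 1% of UMIs, and other classes 40% of their list and a share of at least 0.1%. Barcodes meeting another class's gate with 50% or more of the median phagocyte share were set aside as mixed (19 iron-negative, 95 iron-positive), and no doublet caller was run. Gate limits were written after marker levels were seen, without the members, and 94 and 667 cells lay near the phagocyte limit. A state took the top 10% of phagocytes by list share, with at least 2 UMIs. For the Cd209f-Cd163 and Nos2 lists the 2 UMIs alone decided.

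UMIs were summed per class and library. Log2 ratios used the count plus 0.5 UMI, with exact conditional intervals, and a gene was called at 1.5-fold with at least 10 CPM in either group. The ratio and call step was tested on simulated counts. The tools were scipy 1.17.1, numpy 2.4.6, matplotlib 3.10.9 and pandas 2.3.3 under Python 3.11.15. Named genes were all 9 members, and of each related list the ligand, receptors, Irf1, Irf8 and up to 4 others with the largest ratios at 10 CPM. Further genes (Casp4, Gbp9, Pycard and the state markers among them) were named after their values were seen. The members and lists were chosen with earlier results of these data known. Gbp11, Gm12250 and Mx1 were not analysed here, and 1 gene covered by this rule is not reported here. Alternatives covered the cell filters, the scaling, thinning, free RNA and the state limits.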

Additional observations from a re-analysis of the deposited data

Results flagged for a closer look

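Several members lay on opposite sides of 0 in the 2 libraries when a phagocyte state was set against other phagocytes, with the exact interval on either side clear of 0. These intervals cover counting error only. In thinned phagocytes the variance was 2.47 and 2.72 times the mean for Gbp2 and 2.98 and 3.03 times for Iigp1. The intervals leave out that spread between cells, so the smallest ratios below are not resolved by them. Whether the libraries differ in these contrasts was not tested. In the Hmox1 state, Gbp2 had log2 ratios of 0.20 in the iron-negative and -0.39 in the iron-positive library, and Iigp1 had 0.16 and -0.46. In the Mmp12-Cd36 state Gbp4 had 0.30 and -0.29. In the Arg1-Pdpn state Gbp2 had 0.05 and -0.20, and Gbp4 had 0.12 and -0.33. Gbp2b had 0.29 and -0.18 in the Nos2 state, Gbp2 had 0.11 and -0.29 in the heat shock state, and Iigp1 had -0.25 and 0.11 in the Fcrls-Cx3cr1 state. Of the Hmox1 and Mmp12-Cd36 states the iron-negative library held 260 and 168 cells and the iron-positive library 1627 and 1719.

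The contrast between the fractions itself had opposite signs in phagocytes and mesenchymal cells for 2 members, which was not tested either. Iigp1 had -0.04 in phagocytes and 0.47 in mesenchymal cells, and Gbp7 had -0.19 and 0.24.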

How the results depend on the processing

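The phagocyte sum between fractions (log2 0.00) was -0.02 as a mean over cells of the CPM of each cell, -0.02 after subtracting 10% free RNA, 0.11 scaled by the median gene and 0.08 without the Mmp12-Cd36 and Hmox1 states, against an interval of -0.01 to 0.01. The count of members past 1.5-fold was 0 in 9 of 10 alternatives and 1 (Gbp2b) as a mean over cells. The summed ratio of the interferon gamma list state (1.03 and 1.09) was 1.02 in the iron-positive library as a mean over cells, 1.12 and 1.2 after subtracting free RNA, 1.12 and 1.22 with the top 5%, 0.96 and 0.91 with the top 20% and 1.38 and 1.28 without Cxcl9 in the list. Without the 5% of cells with the most UMIs it was 1.09 in the iron-negative library. Endothelial over phagocyte (0.79) was 1.01 as a mean over cells, 1.03 thinned, 0.86 after subtracting free RNA and 0.92 without the deepest 5%. The mesenchymal ratio (0.33) was 0.09 as a mean over cells, 0.16 thinned, 0.40 scaled by the median gene and 0.42 without the deepest 5%. The cause of these shifts was not tested. Subtracting 10% free RNA left no Gbp2b UMI in iron-positive endothelial cells. That outcome was set by the step itself. Gbp2b stood at 39.8 CPM over all kept cells of that library, and 10% of this is more than the 2.42 CPM of the endothelial cells. The source of those UMIs was not tested. The alternatives without 2 states, without Cxcl9 and without the deepest cells were chosen after seeing the data. No paired analysis was possible because each group is 1 library, and no replicate could be left out. Depth limits the classes under 50 cells, where single members rest on a few UMIs.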
